A study of Mus musculus with 40 samples.

Results

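Aortic RNA-seq values of 8 endothelial identity genes, Pecam1, Cdh5, Vwf, Tek, Kdr, Tie1, Emcn, and Aplnr, are described over every group of a study of smooth-muscle calcineurin (Cn). They were selected by gene symbol, from the 17402 genes of the genotype table and the 15399 genes of the cyclosporine A (CsA) table. All 8 were present in both tables and all 8 passed the filter on low values. The genotype experiment compared male mice with floxed Ppp3r1, the gene of the Cn regulatory subunit CnB1, that carried the tamoxifen-inducible Myh11-CreERT2 transgene (SM-Cn-/-) with controls (Cn-Ctl) that the labels give as male floxed mice without Cre. In the study's methods unfloxed mice with the Cre transgene also count as Cn-Ctl. All of these mice received 1 mg tamoxifen daily for 5 days at 10 to 12 weeks of age and were used 6 weeks later, either without infusion or at 2, 6, or 24 h of angiotensin-II (Ang-II), a pressor peptide, from a minipump at 1 µg/kg/min. Myh11 drives Cre in smooth muscle, so that endothelial cells are not a target of the deletion. The CsA experiment used male wild-type C57BL/6J mice (WT) without Cre or tamoxifen, with no pretreatment or with 5 days of CsA, an inhibitor of Cn phosphatase activity, from a minipump at 5 mg/kg/d (CsA). Both were studied without Ang-II and at 2 or 24 h of its infusion. WT mice had no pump during those 5 days, so that CsA and the implanted pump cannot be told apart. Treated Cn-Ctl, WT, and CsA mice were kept by the authors where systolic pressure exceeded 130 mmHg, whereas treated SM-Cn-/- mice were kept without a pressure cut. The authors also removed SM-Cn-/- mice in which the CnB1 deletion could not be shown. CsA mice were removed where the block of Cn activity could not be shown in the thymus. Each library is a pool of 3 aortas, perfused with saline and stripped of adventitia and perivascular tissue. Every group has 3 libraries except untreated Cn-Ctl and Cn-Ctl at 24 h of Ang-II, which have 2.

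Endothelial cells line the vessel lumen as a single layer, and in the aorta they are few beside the smooth muscle of the media. Pecam1 (CD31) and Cdh5 (VE-cadherin) are adhesion molecules of endothelial junctions, and Vwf is the clotting glycoprotein stored in endothelial granules and also made by megakaryocytes. Tek (Tie2) is the receptor of the angiopoietins and Tie1 is its orphan partner, Kdr (VEGFR2) is the main signaling receptor of VEGF-A, Emcn is a sialomucin of the luminal surface, and Aplnr is the receptor of apelin and elabela. In whole aortas a higher or lower level of such genes can have several sources. Among them are the number of endothelial cells and the RNA of each gene per cell. Reads are scaled to a common library size, so the RNA of other cells counts too. These sources cannot be told apart here.

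In GRCm38 the genes lie on separate chromosomes apart from Tek and Tie1. Pecam1 (ENSMUSG00000020717) spans chr11:106654217-106750628 on the minus strand, Cdh5 (ENSMUSG00000031871) chr8:104101625-104144511 on the plus strand, and Vwf (ENSMUSG00000001930) chr6:125546774-125686679 on the plus strand. Tek (ENSMUSG00000006386) spans chr4:94739289-94874976 on the plus strand and Tie1 (ENSMUSG00000033191) chr4:118471191-118490061 on the minus strand. Kdr (ENSMUSG00000062960) spans chr5:75932827-75978458 on the minus strand, Emcn (ENSMUSG00000054690) chr3:137341067-137432185 on the plus strand, and Aplnr (ENSMUSG00000044338) chr2:85136225-85139923 on the plus strand. All 8 are annotated as protein-coding.

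Emcn, Tek, and Kdr are shown as examples, with the sequence just upstream of their annotated starts. Many endothelial promoters are known to carry binding sites of ETS factors. The 3 are among the 7 genes that were higher in untreated CsA aortas, as described further on. Tie1, which is not shown, is another of the 7. Each stretch is the 120 bases before the gene start (RefSeq sequence, GRCm38.p6), written 5′ to 3′ on the strand of the gene, with the ETS core GGAA or its reverse complement TTCC in capitals. They cover chr3:137340947-137341066 (plus strand), chr4:94739169-94739288 (plus strand), and chr5:75978459-75978578 (minus strand).
Emcn: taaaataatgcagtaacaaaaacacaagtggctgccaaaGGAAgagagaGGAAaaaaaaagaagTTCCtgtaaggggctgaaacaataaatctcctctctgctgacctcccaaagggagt
Tek: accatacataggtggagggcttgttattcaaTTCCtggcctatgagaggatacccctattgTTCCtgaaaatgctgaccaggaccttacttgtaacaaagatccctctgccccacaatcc
Kdr: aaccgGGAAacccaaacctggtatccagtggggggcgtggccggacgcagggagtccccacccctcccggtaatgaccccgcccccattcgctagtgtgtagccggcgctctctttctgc
The stretches hold 3, 2, and 1 copies of the core, respectively. Promoter windows of 250 bases before the start were held for 4 of the 8 genes. In these windows GGAA was found 4 times in Emcn, 2 times in Tek, 4 times in Kdr, and 7 times in Tie1 on either strand, and 93.4% of 32851 mouse promoter windows of that length hold it at least once. The SOX core AACAAT was found once each in Tek and Emcn against 9.42% of all windows with a copy, the GATA core GATAA in none of the 4 against 22.6%, and the KLF core CACCC once each in Tek and Kdr, 2 times in Tie1, and not in Emcn against 52.0%, on both strands in each case. These matches are letters in a window and not binding data.

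Values are given as the deposited signal, which is close to RPM (reads scaled to a common library size). Libraries of the genotype experiment held 2.73 to 10.25 M assigned reads (median 6.52 M) and those of the CsA experiment 18.98 to 38.9 M (median 22.82 M), so that low genes such as Aplnr are measured less precisely in the genotype experiment. Between replicate libraries chi-square per degree of freedom was 6.17 or more, which leaves no pair of libraries within the sampling of reads. Markers of smooth muscle, 10 genes, summed to 17600 to 51500 per library, against 310 to 1340 for the 8 endothelial genes, and none of the 8 was at 0 reads in all libraries of a group. The targeted gene Ppp3r1 lay at 67.3 (48.8 to 83.5) in untreated SM-Cn-/- and at 91.3 (78.8 and 104) in untreated Cn-Ctl, with log2 differences of -0.46, -0.12, -0.60, and 0.26 in the untreated mice and at 2, 6, and 24 h, none past the threshold. The gene total therefore did not separate the genotypes, and it does not resolve the floxed part of the gene. The paper reports a PCR check of recombination in aortic tissue and lower protein of the Cn subunits in aortic extracts of SM-Cn-/- mice.

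Among the 8 genes, Pecam1 had the highest signal per kilobase of transcript in 22 of 22 and 18 of 18 libraries, with medians of 125 and 100 per kb in the genotype and the CsA experiment. Cdh5 (9.98 and 20.9 per kb) and Vwf (8.49 and 22 per kb) followed and changed places between libraries, with Cdh5 above Vwf in 13 of 22 libraries and Vwf above Cdh5 in 11 of 18. Tek and Tie1 had the same median, 5.89 per kb, in the genotype experiment, whereas Tie1 was above Tek in 18 of 18 libraries of the CsA experiment (14 and 8.08 per kb). Emcn (4.40 and 7.88 per kb) and Kdr (1.95 and 5.21 per kb) came next, and neither was above the other in more than 9 of 18 libraries of the CsA experiment. Aplnr was lowest, at 0.39 and 1.13 per kb. Between the libraries of one experiment the 7 other genes ranged over 3.14-fold to 12.5-fold, and Aplnr over 191-fold in the genotype and 5.39-fold in the CsA experiment.

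The CsA experiment was made to separate aortic genes that Ang-II regulates with and without Cn phosphatase activity. Before any Ang-II, 7 of the 8 endothelial genes were higher in CsA than in WT aortas, by 1.73-fold to 3.19-fold, and for these 7 no CsA library overlapped a WT library, as for 23.8% of all genes in that direction. Of all genes tested, 25.2% were differentially expressed in this comparison (adjusted p under 0.05 by limma). The median log2 difference of the 8 genes was 1.19, against -0.02 over all genes. Higher genes made up 55.0% of those called over all genes, and 39.8% with quantile normalization, which moved the median of all genes to -0.11 and kept the 7 calls.

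Of the junction genes, Pecam1 stood at 282, 161, and 252 in the 3 WT libraries and at 346, 442, and 387 in the 3 CsA libraries. Cdh5 stood at 56.8, 42.3, and 55.2 in WT and at 129, 119, and 125 in CsA. Both were higher in every CsA library, Pecam1 by a log2 difference of 0.79 (SE 0.18, adjusted p = 0.00529) and Cdh5 by 1.27 (SE 0.19, adjusted p = 0.00078). Vwf values were 173, 87.5, and 130 in WT against 255, 296, and 302 in CsA, a log2 difference of 1.18 (SE 0.26, adjusted p = 0.00445). WT replicate 2 was the lowest library for these 3 genes, and without it the differences of Pecam1 and Vwf were 0.55 and 0.92, still past the threshold.

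The angiopoietin receptor Tek had values of 38.4, 21.3, and 30.4 in WT and 63.4, 68.5, and 59.5 in CsA, and its partner Tie1 of 51.6, 32.2, and 45.2 in WT and 94.9, 111, and 89.1 in CsA. Both rose by similar amounts, with log2 differences of 1.11 for Tek (SE 0.16, adjusted p = 0.000655) and 1.20 for Tie1 (SE 0.19, adjusted p = 0.00088). The VEGF receptor Kdr had the largest difference of the 8, from 24.1, 23.7, and 26.9 in WT to 80.6, 76.2, and 84.8 in CsA (log2 difference 1.68, SE 0.32, adjusted p = 0.00222). Replicates of Kdr were close within both groups. Emcn stood at 10.2, 11.6, and 10 in WT and at 24.4, 28.3, and 24.4 in CsA (1.24, SE 0.23, adjusted p = 0.00201). Aplnr was the exception, with 5.46, 5.34, and 4.72 in WT, 11.5, 4.26, and 7.14 in CsA, overlapping groups, and a log2 difference of 0.42 (SE 0.28, adjusted p = 0.282). The 7 calls were made under each of the 8 alternative settings and without each library in turn.

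**Figure D1:**
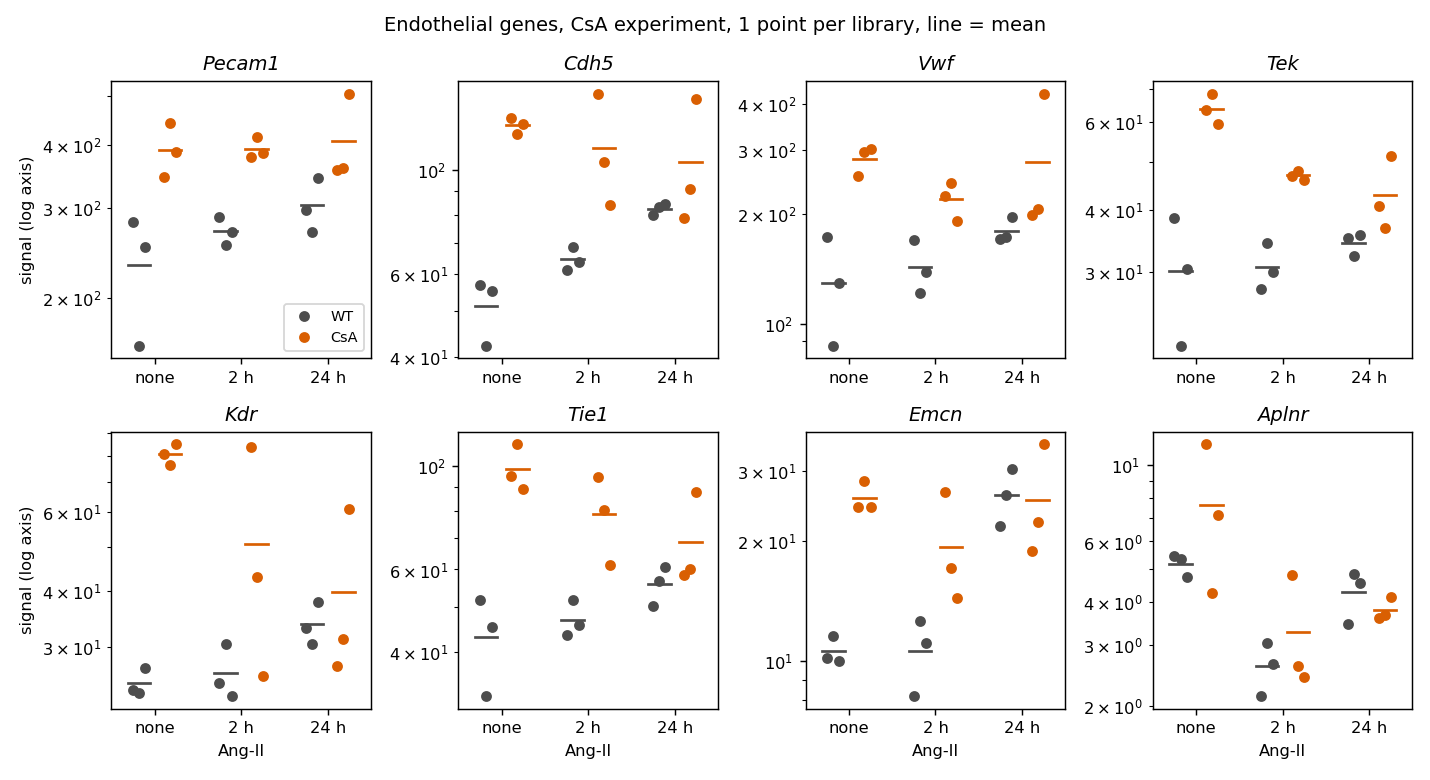
Signal (log axis) of the 8 genes in the CsA experiment by hours of Ang-II, 1 point per library and a line at each group mean, WT in grey and CsA in orange. In the untreated groups the CsA points of every gene but Aplnr lie above all WT points, for Kdr at 76.2 to 84.8 against 23.7 to 26.9.

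Further endothelial genes moved the same way. Of 40 other endothelial genes, 35 were higher and 1 was lower in untreated CsA aortas, with a median log2 difference of 1.11. The named genes with the largest differences were Cyyr1 (1.90, SE 0.26), the leukocyte adhesion molecule E-selectin Sele (1.89, SE 0.43), Adgrl4 (1.70, SE 0.23), P-selectin Selp (1.69, SE 0.37), the sphingosine-1-phosphate receptor S1pr1 (1.67, SE 0.22), and Gpihbp1, which anchors lipoprotein lipase on capillaries (1.62, SE 0.30). Of 21 measured ligands, partners, and regulators of the 8 genes, 10 were higher and 1 was lower. Among them were Vegfa, the ligand of Kdr, at a mean of 135 in CsA and 56.5 in WT (1.25, SE 0.32), the Tek ligand Angpt1 at 10.8 and 5.09 (1.02, SE 0.32), and the Tek phosphatase Ptprb, which the endothelial list also holds, at 220 and 118 (0.93, SE 0.18). The VEGF co-receptors Nrp2 and Nrp1 differed by 1.34 (SE 0.27) and 0.96 (SE 0.20), and Flt4, the VEGF-C receptor that also marks lymphatic endothelium, by 1.34 (SE 0.23).

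Markers of other cell types differed between the same groups. All 9 macrophage and leukocyte markers were higher in untreated CsA aortas (median 1.25, summed signal 276 to 341 against 103 to 150 in WT), as were 6 of 7 adipocyte markers (median 2.36, 2740 to 5030 against 438 to 832) and 4 of 6 lymphatic markers (median 1.09, 92.5 to 108 against 37.0 to 49.1). Of the smooth muscle markers 9 of 10 were lower (median -0.76, 17600 to 19800 against 27400 to 37500). Fibroblast (1 of 8, 1490 to 1710 against 1030 to 1730), nerve sheath (1 of 4, 39.0 to 97.0 against 22 to 46.7), and platelet markers (1 of 3, 8.10 to 35.6 against 5.37 to 7.35) had 1 higher gene each, and erythroid (132 to 138 against 60.2 to 444) and mesothelial markers (36.1 to 142 against 20.1 to 29.2) had none past the threshold. No marker of these lists was at 0 in all libraries of either group. The part of these cell types in the endothelial difference was not tested.

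**Figure D2:**
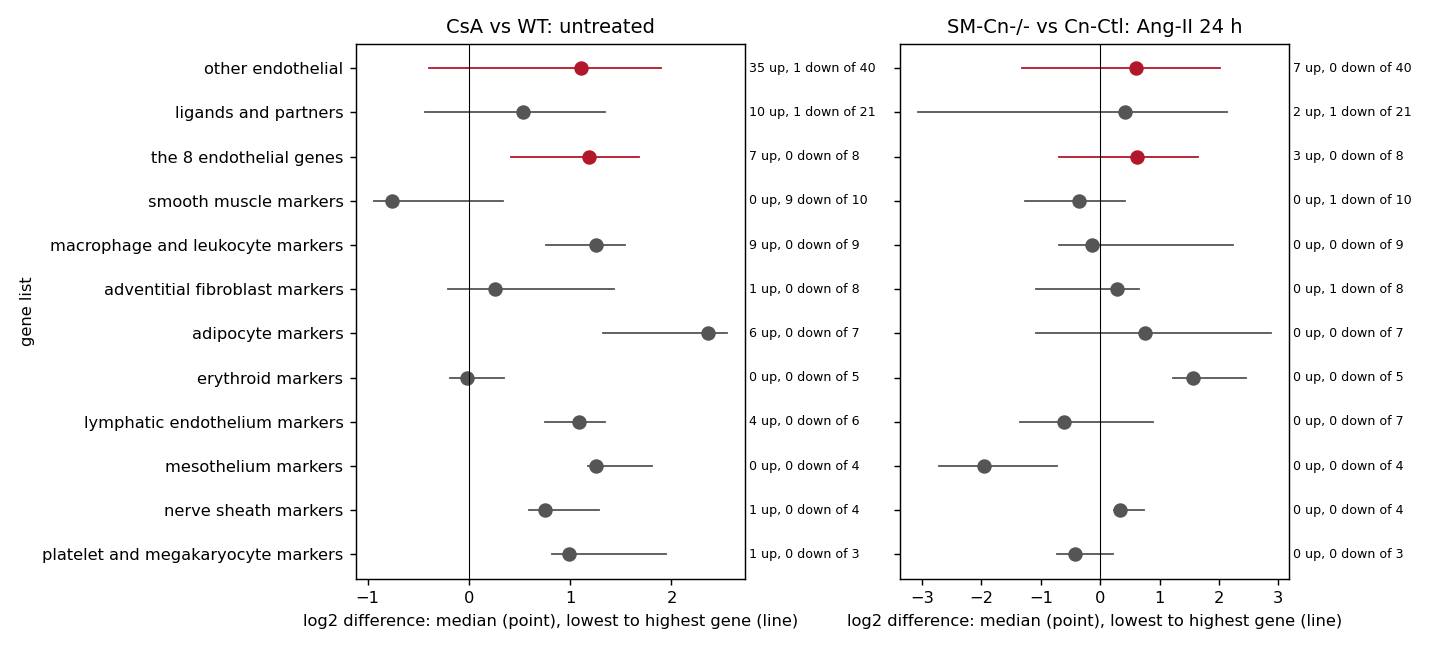
Log2 differences (x axis) by gene list (y axis) for untreated CsA against WT (left) and for SM-Cn-/- against Cn-Ctl at 24 h of Ang-II (right), with a point at the median of the list, a line from its lowest to its highest gene, and the number of genes past the threshold beside each line. The 8 endothelial genes have medians of 1.19 and 0.62, and the adipocyte list stands farthest to the right in the left panel at 2.36.

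During Ang-II the difference between CsA and WT was smaller and no gene of the 8 passed the threshold. At 2 h their median log2 difference was 0.67, and all 8 had a positive sign, while 1.33% of all genes were differentially expressed. Of the 8, 6 were higher without overlap between the groups (9.83% of all genes) and 7 had an unadjusted p under 0.05 (18.5% of all genes in either direction). Cdh5, for example, stood at 61.1, 68.6, and 63.6 in WT and at 145, 104, and 84.3 in CsA (log2 difference 0.75, SE 0.19, adjusted p = 0.0663). DESeq2 on recovered reads called 4 of the 8 at this time and edgeR none, and 3 were called without CsA replicate 3, in which Kdr was at 25.9 against 83.6 and 43.0 in the other libraries. Of the 40 other endothelial genes 3 were higher, Cldn5, She, and Rasip1, by 1.26, 0.94, and 0.89.

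At 24 h of Ang-II the median log2 difference between CsA and WT was 0.28, and DESeq2 and edgeR called none of the 8; 5.58% of all genes were differentially expressed. Of the 8, 3 were higher without overlap (13.3% of all genes) and 1 had an unadjusted p under 0.05 (23.8% of all genes in either direction). The latter was Pecam1, at 298, 269, and 345 in WT and 357, 360, and 505 in CsA (0.41, SE 0.18, adjusted p = 0.174). CsA replicate 3 was the highest of the 3 CsA libraries for each of the 8 genes at 24 h, with Vwf at 428 against 199 and 207. For Emcn the groups were level, at 21.8, 26.1, and 30.4 in WT and 18.9, 22.4, and 35.0 in CsA (-0.07, SE 0.23). Of the 40 other endothelial genes none was higher and 1 was lower, Thbd, the thrombin receptor of the luminal surface (-0.75, SE 0.15).

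The response to Ang-II itself was then compared within each pretreatment. In WT aortas 2 of the 8 genes were higher at 24 h than in untreated mice, among 35.0% of all genes that were differentially expressed. Emcn rose from 10.2, 11.6, and 10 to 21.8, 26.1, and 30.4 (1.25, SE 0.23, adjusted p = 0.000555). Cdh5 rose from 56.8, 42.3, and 55.2 to 80.2, 83.1, and 84.7 (0.69, SE 0.19, adjusted p = 0.0105). The other 6 ranged from -0.26 for Aplnr to 0.52 for Vwf. Without untreated WT replicate 1 the count was 5, and without replicate 2 it was 1, Emcn. Of the 40 other endothelial genes 18 were higher, led by Sele (2.81, SE 0.43), Selp (2.06, SE 0.37), Icam1 (1.80, SE 0.24), and Thbd (1.47, SE 0.15). All 9 macrophage markers (277 to 432 against 103 to 150 untreated), 4 of 6 lymphatic markers (113 to 169 against 37.0 to 49.1), 2 of 3 platelet markers (13.5 to 24.3 against 5.37 to 7.35), and 2 of 4 mesothelial markers (25.9 to 209 against 20.1 to 29.2) were higher too, as was 1 of 7 adipocyte markers (925 to 1040 against 438 to 832). Of 10 smooth muscle markers 1 was higher and 4 were lower (25100 to 35300 against 27400 to 37500), of 8 fibroblast markers 3 were higher and 2 lower (1500 to 1770 against 1030 to 1730), and no erythroid (203 to 805 against 60.2 to 444) or nerve sheath marker (17.1 to 27.2 against 22 to 46.7) passed. The part of these lists was not tested. At 2 h in WT, 1 of the 8 genes passed the threshold against 21.4% of all genes, Aplnr, described below.

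In CsA aortas none of the 8 genes rose past the threshold with Ang-II. At 24 h 2 of the 8 were lower than in untreated CsA mice, against 8.98% of all genes. Tek fell from 63.4, 68.5, and 59.5 to 40.7, 36.7, and 51.3 (-0.58, SE 0.16, adjusted p = 0.0366). Kdr fell from 80.6, 76.2, and 84.8 to 27.2, 31.2, and 60.7 (-1.10, SE 0.32, adjusted p = 0.0413). The groups did not overlap for 4 of the 8 genes, these 2 and also Tie1 and Aplnr, which were short of the threshold. The share of all genes without overlap was not counted here, so the lack of overlap is a description only. The calls of Tek and Kdr were lost in the fit to the compared groups alone and that of Kdr also with edgeR. The count was 0 without CsA 24 h replicate 1 or 2 or untreated replicate 1 or 3, 1 without untreated replicate 2, and 4 without CsA 24 h replicate 3. Of the 40 other endothelial genes 1 was lower, Ushbp1 (-0.79, SE 0.23). At 2 h in CsA 1 of the 8 was lower, Aplnr, against 20.1% of all genes. At 24 h in CsA 2 of 10 smooth muscle markers were higher (20200 to 29300 against 17600 to 19800 untreated), and 2 of 8 fibroblast (1150 to 1530 against 1490 to 1710) and 1 of 6 lymphatic markers (92.4 to 131 against 92.5 to 108) were lower. None passed among macrophage (233 to 400 against 276 to 341), adipocyte (1470 to 4390 against 2740 to 5030), erythroid (387 to 2480 against 132 to 138), mesothelial (34.3 to 60.9 against 36.1 to 142), nerve sheath (24.4 to 53.3 against 39.0 to 97.0), or platelet markers (11.9 to 18.1 against 8.10 to 35.6). The part of these lists was not tested.

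**Figure D3:**
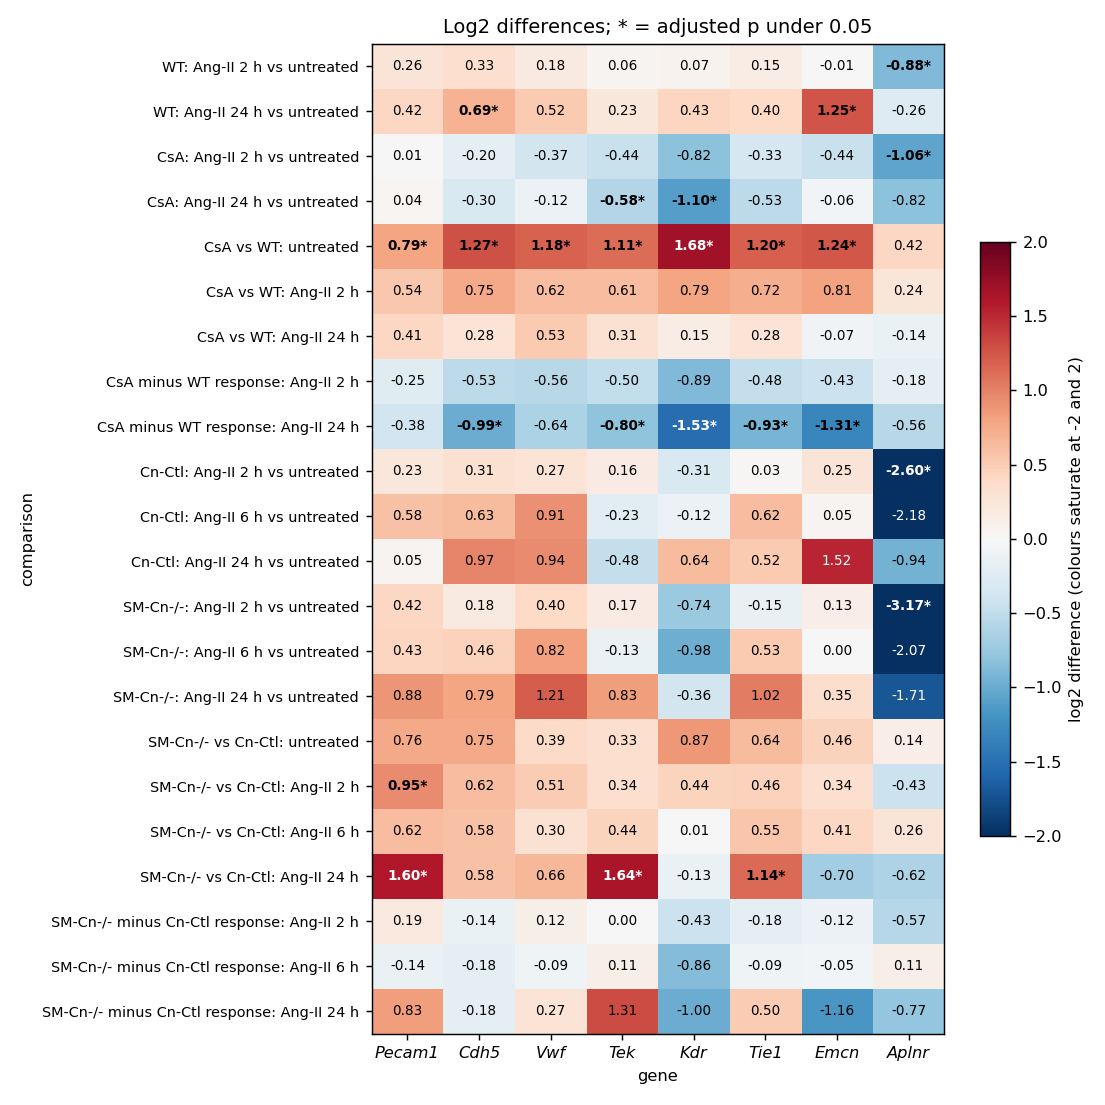
Log2 differences of the 8 genes (columns) in all 22 comparisons (rows), with red for higher and blue for lower in the first-named condition and an asterisk where the adjusted p was under 0.05. The row of untreated CsA against WT holds 7 red asterisks, the row of the CsA minus WT response at 24 h holds 5 blue ones from -0.80 to -1.53, and the Aplnr column holds 4 blue ones at 2 h.

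The difference between the responses of CsA and WT to Ang-II was tested as an interaction. At 24 h it was negative for all 8 genes and past the threshold for 5 (Cdh5, Tek, Kdr, Tie1, and Emcn, from -0.80 to -1.53), against 9.42% of all genes; at 2 h it was past the threshold for none (0.146% of all genes, median -0.49, with 1 of the 8 and 13.8% of all genes at an unadjusted p under 0.05, and none of the 8 by DESeq2 or edgeR). The values share the untreated WT and CsA libraries with the comparisons above and restate them as one number. Of 40 other endothelial genes 13 were lower and 1 was higher at 24 h, with Sele at -2.54 (SE 0.61), Selp at -1.85 (SE 0.52), and Icam1 at -1.55 (SE 0.33). Lower in this response were 6 of 9 macrophage, 2 of 6 lymphatic, and 1 of 8 fibroblast markers, and 2 of 10 smooth muscle markers were higher. None of 7 adipocyte markers passed, with a median of -1.06 (-1.39 to -0.14). The part of these lists was not tested. The 5 calls depended on single libraries. Their count was 0 without CsA 24 h replicate 1 or 2 or without WT 24 h replicate 2, and 1 without any untreated CsA library, WT 24 h replicate 3, or untreated WT replicate 2 or 3. It was 3 without WT 24 h replicate 1, 4 without untreated WT replicate 1, and 6 without CsA 24 h replicate 3. With edgeR it was 2, Cdh5 and Emcn.

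The genotype experiment asked which genes need Cn expression in smooth muscle. In untreated mice all 8 endothelial genes had a positive log2 difference between SM-Cn-/- and Cn-Ctl (0.14 to 0.87, median 0.55, against 0.00 over all genes), but none passed the threshold, 2 had an unadjusted p under 0.05 (5.25% of all genes), and edgeR and DESeq2 called none; 0.0139% of all genes were differentially expressed. Pecam1 lay at 300 and 219 in Cn-Ctl, and SM-Cn-/- libraries were at 481, 449, and 382 without overlap (0.76, SE 0.28, adjusted p = 0.768). SM-Cn-/- libraries varied more in the lower genes, with Kdr at 45.9, 6.76, and 31.1. Adipocyte markers had a median of 1.29 (365 to 1800 against 322 to 514) and macrophage markers one of 0.96 (159 to 273 against 85.7 to 124). Fibroblast markers had a median of 0.37 (1180 to 1880 against 869 to 1620) and smooth muscle markers one of -0.25 (22200 to 25800 against 30200 to 31000). No gene of these lists passed the threshold, and their part was not tested.

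At 2 h of Ang-II 1 of the 8 genes was higher in SM-Cn-/-, against 3.70% of all genes. This was Pecam1, with 214, 336, and 379 in Cn-Ctl, and SM-Cn-/- libraries were at 620, 671, and 476 (0.95, SE 0.25, adjusted p = 0.0308). The groups did not overlap, but the call was lost without Cn-Ctl replicate 1 or 2 or SM-Cn-/- replicate 1 or 2 (log2 difference 0.71 to 1.03). At 6 h none passed (1.98% of all genes, median 0.42, 1 at an unadjusted p under 0.05 against 13.9% of all genes, 0 by edgeR and DESeq2), and Pecam1 lay at 398, 443, and 318 in Cn-Ctl, and SM-Cn-/- libraries were at 955, 507, and 421. None of the 40 other endothelial genes passed in untreated mice or at 2 or 6 h.

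At 24 h of Ang-II 3 of the 8 genes were higher in SM-Cn-/- than in Cn-Ctl, against 4.94% of all genes. Pecam1 stood at 285 and 247 in Cn-Ctl, and SM-Cn-/- libraries were at 848, 788, and 777 (1.60, SE 0.28, adjusted p = 0.00129). The angiopoietin receptor Tek stood at 19.5 and 14.6 in Cn-Ctl, and SM-Cn-/- libraries were at 46.8, 56.1, and 59.0 (1.64, SE 0.42, adjusted p = 0.0244). Its partner Tie1 stood at 18.4 and 31.2 against 52.2, 55.5, and 52.6 (1.14, SE 0.33, adjusted p = 0.0486). The folds were 3.02, 3.12, and 2.20 with no overlap, and the SM-Cn-/- replicates were close together. The share of all genes without overlap was not counted for these groups of 2 and 3 libraries, so the lack of overlap is a description only. The other 5 did not share this size. Cdh5 (42.6 to 43.2 against 59.5 to 70.4) and Vwf (79.1 to 91.1 against 127 to 139) did not overlap and had log2 differences of 0.58 and 0.66. Kdr (10.3 and 32.0 against 18, 24.6, and 10.3), Emcn (19.5 and 28.6 against 14.2, 15.2, and 13.6), and Aplnr (1.46 and 6.86 against 1.63, 3.17, and 1.43) had negative differences of -0.13, -0.70, and -0.62. The groups did not overlap for Emcn either, with the lower values in SM-Cn-/-. None of these 5 passed the threshold. The difference of Kdr was 0.66 without Cn-Ctl replicate 3 and 0.20 without SM-Cn-/- replicate 3, and that of Aplnr was 0.33 without Cn-Ctl replicate 3. Pecam1 was called without each library and under all 8 alternative settings. Tie1 was lost without each of the 5 libraries (0.77 to 1.51) and with edgeR, with all biotypes, or in the fit to the compared groups alone, and 1 to 2 of the 3 calls were left when 1 of the 5 libraries was left out.

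**Figure D4:**
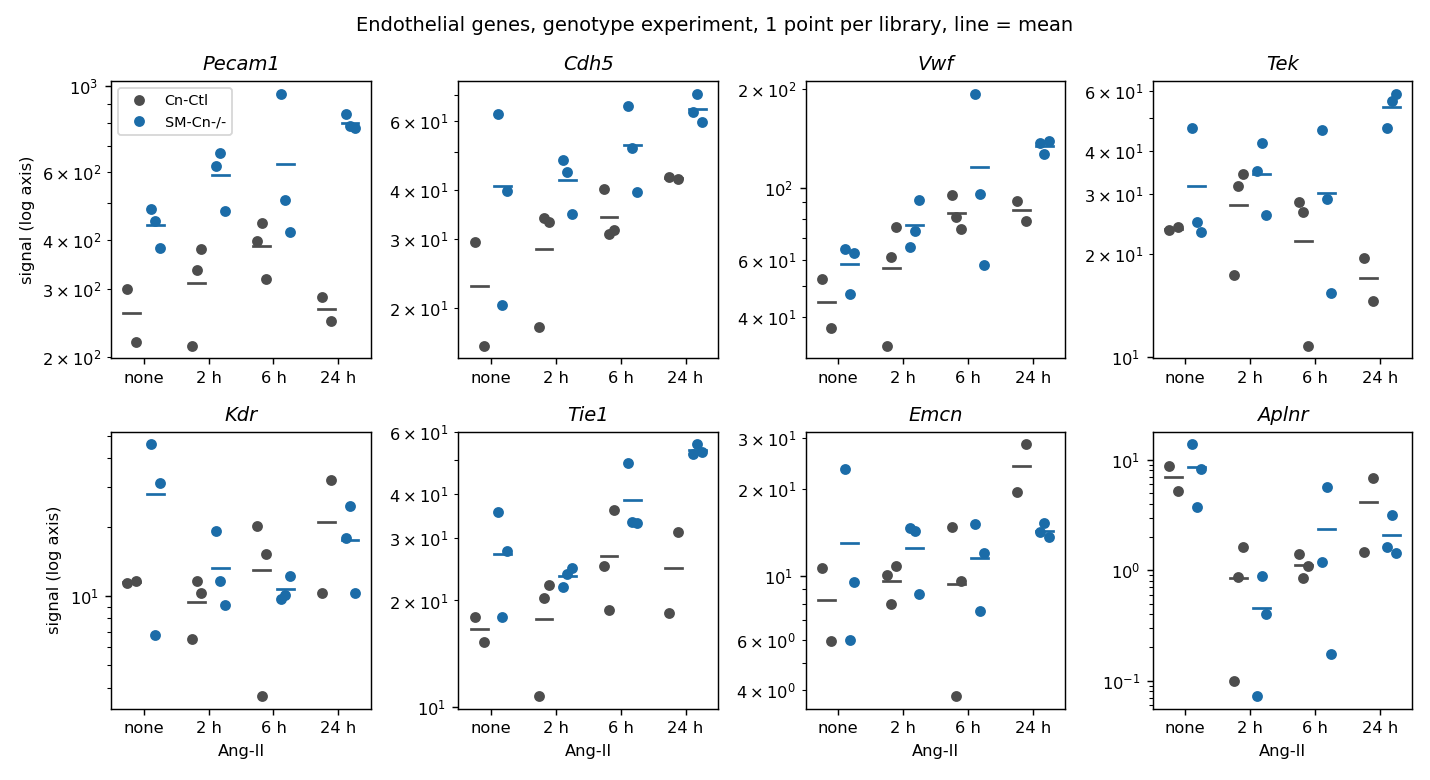
Signal (log axis) of the 8 genes in the genotype experiment by hours of Ang-II, 1 point per library and a line at each group mean, Cn-Ctl in grey and SM-Cn-/- in blue. At 24 h the blue points of Pecam1 (777 to 848), Tek, and Tie1 stand apart from the grey ones, and the points of Aplnr drop at 2 h in both genotypes.

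At this time 7 of the 40 other endothelial genes were higher in SM-Cn-/- and none lower (median 0.61), among them Clec14a (2.02, SE 0.49), the tight junction protein Cldn5 (1.83, SE 0.42), the transcription factor Sox17 (1.53, SE 0.35), She (1.38, SE 0.40), Icam2 (1.30, SE 0.37), and Lmo2 (1.29, SE 0.26). Of the ligands and regulators, Angpt2, the context-dependent Tek ligand, was higher (102 against 22.9, log2 difference 2.13, SE 0.30), as was Foxo1, a transcription factor inhibited by Tek signaling (0.78, SE 0.17), and Pgf, placental growth factor, was lower (8.14 against 73.5, -3.07, SE 0.44). Of the marker lists, 1 of 10 smooth muscle genes (25700 to 28800 against 28700 to 51500) and 1 of 8 fibroblast genes (1380 to 2200 against 1170 to 1910) were lower. None passed among the markers of macrophages (173 to 282 against 217 to 311), adipocytes (1230 to 2140 against 329 to 1220), erythroid cells (503 to 2250 against 143 to 602), lymphatic endothelium (54.4 to 80.7 against 107 to 117, with Ccl21a at 0 reads in both Cn-Ctl libraries), mesothelium (1.33 to 21.6 against 24.1 to 44.8), nerve sheath (26.9 to 37.4 against 15.5 to 41.7), or platelets (3.63 to 26.3 against 16.2 in both). The part of these lists in the endothelial values was not tested.

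Within the genotypes, Ang-II at 6 and 24 h left all 8 genes short of the threshold. Of all genes, 3.97% and 5.62% passed in Cn-Ctl, whereas the shares for SM-Cn-/- were 2.34% and 0.79%. In Cn-Ctl 3 of the 8 had an unadjusted p under 0.05 at 6 h and 3 at 24 h (16.8% and 20% of all genes), and Emcn went from 10.6 and 5.93 to 19.5 and 28.6 at 24 h (1.52, SE 0.54, adjusted p = 0.11). In SM-Cn-/- 2 had an unadjusted p under 0.05 at 6 h and 6 at 24 h (16.4% and 11.5% of all genes), with Vwf from 64.9, 47.1, and 63.2 to 137, 127, and 139 at 24 h (1.21, SE 0.31, adjusted p = 0.0756). DESeq2 called 1 gene in SM-Cn-/- at 6 h and 2 at 24 h, edgeR none, the fit to the compared groups alone 2 at 24 h, and quantile normalization 1 at 24 h; 1 gene was called at 6 h without SM-Cn-/- 6 h replicate 2 or 3. Of the 40 other endothelial genes 3 were higher at 24 h in Cn-Ctl (Icam1 1.98, Eng 1.36, Thbd 1.28) and 4 in SM-Cn-/- (Sox17 1.43, Nos3 1.35, Eng 1.25, Icam1 1.17). The responses of the genotypes differed for none of the 8 genes at 2, 6, or 24 h, where 0.513%, 0.0624%, and 0.513% of all genes passed, none had an unadjusted p under 0.05 at 2 or 6 h (7.97% and 6.05% of all genes), 2 had one at 24 h (11% of all genes, Tek 1.31, SE 0.60, and Pecam1 0.83, SE 0.39), and DESeq2 and edgeR called none. Among the ligands, Pgf differed in response by -2.94 at 24 h.

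The apelin receptor Aplnr fell at 2 h of Ang-II in each of the 4 backgrounds. In Cn-Ctl it went from 8.81 and 5.20 untreated to 0.0997, 0.867, and 1.61 at 2 h, or 60 and 28 reads to 0, 5, and 10 (-2.60, SE 0.78, adjusted p = 0.0476). In SM-Cn-/- it went from 13.8, 3.70, and 8.20 to 0.0725, 0.878, and 0.404, or 92, 14, and 36 reads to 0, 6, and 2 (-3.17, SE 0.69, adjusted p = 0.0222). A count of 0 in these libraries allows up to 3 reads, a signal of 0.698 and 0.507. In WT it went from 5.46, 5.34, and 4.72 to 2.13, 3.04, and 2.65 (-0.88, SE 0.28, adjusted p = 0.0341) without overlap. In CsA it went from 11.5, 4.26, and 7.14 to 4.78, 2.61, and 2.43 with overlap (-1.06, SE 0.28, adjusted p = 0.0149). No other gene of the 8 passed the threshold at 2 h against untreated, where 6.23% of all genes passed in Cn-Ctl and 1.13% in SM-Cn-/-. In CsA 7 of the 8 genes had a negative sign at 2 h, among them Kdr at -0.82 and Tek at -0.44. Kdr was at -0.74 in SM-Cn-/-. Levels at 24 h were those given above for both genotypes, 3.46, 4.83, and 4.54 in WT, and 3.60, 3.66, and 4.13 in CsA, with none past the threshold against untreated. At 6 h Cn-Ctl lay at 1.40, 0.859, and 1.10 and SM-Cn-/- at 1.19, 5.66, and 0.173, the last a library with 0 reads in which 3 reads would give 1.21. Adipocyte markers at 2 h summed to 353 to 603 in SM-Cn-/- (365 to 1800 untreated) and 341 to 393 in Cn-Ctl (322 to 514). The sums were 748 to 1290 in WT (438 to 832) and 1340 to 4040 in CsA (2740 to 5030). Of 9 macrophage markers 3 were lower at 2 h in CsA and 1 was higher in Cn-Ctl. The part of these lists was not tested.

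The sign of the Aplnr fall held under every alternative and without every library, but its calls did not. The Cn-Ctl call was lost without any library but 2 h replicate 3 and with edgeR, all biotypes, a filter at 5, or quantile normalization. The SM-Cn-/- call was lost with edgeR (-4.38) and without 2 h replicate 1 or 3 or untreated replicate 1 or 3 (-3.18 to -2.76). The WT call was lost with quantile normalization and without any library but 2 h replicate 2 (-0.94 to -0.76). The CsA call was lost with quantile normalization, in the fit to the compared groups alone, and without 2 h replicate 2 or 3 or untreated replicate 1 (-0.95 to -0.73), whereas 3 genes were called without 2 h replicate 1. At the same time point Pgf rose by 3.74 in Cn-Ctl, 3.05 in WT, and 2.16 in CsA, and the flow-responsive transcription factor Klf4 by 2.17, 1.64, and 0.68. Klf2 rose by 1.29 and 1.32 and Angpt2 changed by -1.31 and -0.70 in Cn-Ctl and WT. In SM-Cn-/- Foxo1 (0.70) was the 1 gene past the threshold among the 21 ligands, partners, and regulators. Foxo1 also rose past the threshold in WT (0.45). Pgf in SM-Cn-/- went from a mean of 5.87 untreated to 19.0 at 2 h, short of the threshold. The Klf4 response at 2 h differed by -1.94 between SM-Cn-/- and Cn-Ctl and by -0.96 between CsA and WT, both past the threshold.

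The level of Pecam1 beside the other genes is given as a description, with no test. Set against the mean log2 value of the other 7 genes in the same library, Pecam1 stood 4.23 to 5.11 higher in the group means of SM-Cn-/-, 3.58 to 4.60 in Cn-Ctl, 2.98 to 3.30 in WT, and 2.65 to 3.20 in CsA. At 24 h it was 4.81 ± 0.20 (SD, n = 3) in SM-Cn-/- and 3.58 ± 0.57 (SD, n = 2) in Cn-Ctl. Aplnr is one of the other 7, and its lower mean values during Ang-II raise this measure at each time in each background. At 24 h its log2 differences from untreated were -1.71 in SM-Cn-/-, -0.94 in Cn-Ctl, -0.82 in CsA, and -0.26 in WT, none past the threshold. The tables of the experiments were normalized separately, so that levels set across them are a description only.

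**Figure D5:**
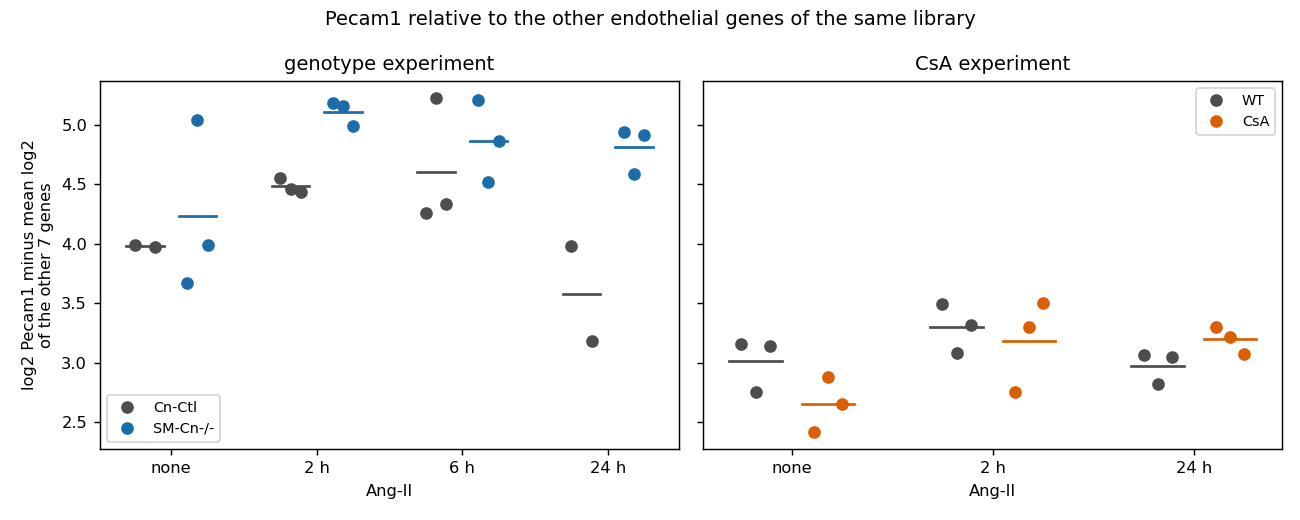
Pecam1 relative to the other 7 genes, as log2 Pecam1 minus their mean log2 value in the same library (y axis), by hours of Ang-II in the genotype (left) and the CsA experiment (right), 1 point per library and a line at each group mean. The 3 SM-Cn-/- libraries at 24 h (4.58 to 4.94) lie above both Cn-Ctl libraries (3.18 and 3.98), and the points of the CsA experiment reach up to 3.50.

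Across libraries the genes moved together to different degrees. Over the 18 libraries of the CsA experiment the median Pearson correlation of a gene with the other 7 was 0.72 to 0.88 for all genes but Aplnr (0.35), and after subtraction of the group means 0.43 to 0.73 (Aplnr 0.23). Over the 22 libraries of the genotype experiment it was 0.35 (Emcn) to 0.73 (Pecam1), and 0.09 for Aplnr, and after subtraction of the group means 0.24 (Emcn) to 0.63 (Cdh5), with Aplnr at 0.44 among the others. Libraries of one group share a treatment, and all values of a library share its depth and tissue makeup, so these correlations are descriptions. Outside the 8, genes whose log2 values followed their mean most closely in both experiments included Ly6e (0.858 and 0.874 over 22 and 18 libraries), Acad11 (0.817 and 0.842), Arap3 (0.815 and 0.974), and Adhfe1 (0.801 and 0.836). With group means subtracted they were Slfn5 (0.859 and 0.84), St3gal1 (0.813 and 0.876), Myct1 (0.792 and 0.868), Ptcd2 (0.789 and 0.786), and Immt (0.806 and 0.784).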

How the data were processed

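RNA-seq libraries (oligo-dT, Genome Analyzer IIx) were aligned and quantified by the authors against mouse GRCm38, with Bowtie 0.12.7 and RSEM 1.16 named in the submitters' processing notes. The authors deposited a signal per gene and library, close to RPM, in 2 separately normalized tables. Whole reads were recovered from it (100% of values within 0.02 of a whole read in each library), and recovered totals give the depth. The authors discarded 1 untreated Cn-Ctl library.

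Signals were analysed as log2(signal + 0.5), and every log2 difference and fold is on that scale, which understates changes of low genes. Protein-coding genes with a signal of at least 1 in at least 2 libraries were fitted per table with limma 3.58.1 (R 4.3.3), with all groups of a table in 1 fit, a mean-variance trend, and Benjamini-Hochberg adjustment over all 14424 and 13738 genes; called means an adjusted p under 0.05. P-values are two-sided and compare pools of 3 aortas. The share of all genes without overlap between groups was counted only for CsA against WT. Elsewhere a lack of overlap is a description only. Groups come from the labels. The 8 genes and the gene lists were chosen with earlier results of these data known. Genes of 2 lists (40 other endothelial genes, and 24 ligands, partners, and regulators, of which 21 were tested) were named where called, at most 6 per list and comparison by size, and likeness was ranked by the lower of 2 Pearson correlations with the mean log2 value of the 8 genes; 1 gene of that ranking is not reported here. Platelet markers Gp9 and Gp1ba were not listed. Alternatives were DESeq2 1.42.0 and edgeR 4.0.16 (quasi-likelihood) on recovered reads, quantile normalization, a pseudocount of 1, a filter at 5, all biotypes, only the compared groups in the fit, a replicate block, and leaving out each library. The fit was also run on simulated reads with 200 changed genes. For Cn-Ctl at 2 h against untreated (14424 genes) it recovered 85% of 4-fold and 23% of 2-fold changes, with 6 false calls. For WT at 2 h against untreated (13741 genes) it recovered 99% and 80%, with 14 false calls. These shares were not split by signal, so they do not give the recovery of a low gene such as Aplnr.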

Additional observations from a re-analysis of the deposited data

Results flagged for a closer look

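For 5 of the 8 endothelial genes the response to 24 h of Ang-II differed between CsA and WT aortas by the interaction test of limma, against 9.42% of all genes. The difference in log2 response, CsA minus WT, was -0.99 for Cdh5 (SE 0.27, adjusted p = 0.0322), -0.80 for Tek (SE 0.23, adjusted p = 0.0386), -1.53 for Kdr (SE 0.45, adjusted p = 0.0427), -0.93 for Tie1 (SE 0.26, adjusted p = 0.0388), and -1.31 for Emcn (SE 0.32, adjusted p = 0.0207). It was -0.38 for Pecam1, -0.64 for Vwf, and -0.56 for Aplnr, none of them past the threshold. For Emcn the WT response was 1.25 and the CsA response -0.06, and for Kdr they were 0.43 and -1.10. The untreated CsA libraries stood above untreated WT for all 5 genes, and the groups at 24 h overlapped for all of them but Tek. Without CsA 24 h replicate 1, CsA 24 h replicate 2, or WT 24 h replicate 2, none of the 5 passed the threshold, and with edgeR 2 of them did, Cdh5 and Emcn.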

How the results depend on the processing

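Of 585 values of single genes under an alternative, 472 kept direction and side of the threshold, 105 lost the call, 5 gained one, and 3 changed sign, all in SM-Cn-/- against Cn-Ctl at 24 h and none called. The difference of Kdr ranged from -0.92 (without Cn-Ctl replicate 2) to 0.66 (without Cn-Ctl replicate 3) and was 0.20 without SM-Cn-/- replicate 3, and that of Aplnr ranged from -1.58 to 0.33 without the same Cn-Ctl libraries. Counts of called genes of the 8, summed over comparisons of one kind, moved as follows, and the cause was not tested. Ang-II against untreated in the genotype experiment gave 2 calls, 5 with DESeq2, 0 with edgeR, 1 with all biotypes or a filter at 5, 4 with only the compared groups in the fit, and 1 to 3 when 1 library was left out. Ang-II against untreated in the CsA experiment gave 6, and 3 to 8 without 1 library. CsA against WT gave 7, 11 with DESeq2, and 7 to 10 without 1 library. SM-Cn-/- against Cn-Ctl gave 4, and 2 to 4 without 1 library. The difference in response between CsA and WT gave 5, 2 with edgeR, and 0 to 6 without 1 library, and that between the genotypes gave 0 throughout. These left-out counts take the refitted calls where a comparison uses the library and the original calls elsewhere.

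Replicate numbers are shared between groups, but same-numbered libraries did not deviate together (median correlation 0.059 over 71 pairs and -0.028 over 45 pairs, over 0.1 in 27 and 11), so they share only a number. With the replicate block 1 call was left for Ang-II in the genotype experiment, 4 for Ang-II in the CsA experiment, and 2 for the CsA minus WT response. The calls lost were Aplnr in Cn-Ctl at 2 h, Tek and Kdr in CsA at 24 h, and Tek, Kdr, and Tie1 in the response at 24 h.

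Over all genes, counts moved most with DESeq2 (CsA against WT at 2 h 801 in place of 183, at 24 h 1538 in place of 766, CsA minus WT response at 2 h 323 in place of 20) and with only the compared groups in the fit (2, 0, and 70 for the same comparisons, and 396 in place of 1233 for CsA at 24 h against untreated). Quantile normalization moved the share of higher genes among those called from 48.1% to 60.6% in the CsA minus WT response at 24 h, from 53.2% to 40.1% in WT at 2 h, and from 75.8% to 65.1% in Cn-Ctl at 2 h. Depth limits Aplnr in the genotype experiment, with 0 to 92 reads per library.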
